A study of Mus musculus with 18 samples.

Results

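Hepatocytes take drugs, bilirubin and other organic anions from the blood and return them, mostly as conjugates, to bile or blood. The transcripts of 9 genes that carry out these steps were followed in mouse liver tumours. They were chosen by name, 5 uptake transporters (Slco1a1, Slco1a4, Slco1b2, Slco2b1 and Slc22a7) and 4 export transporters (Abcc2, Abcc3, Abcc4 and Abcg2), out of 55335 genes in the count table. The choice was made with earlier results of these data known, so counts of members beside the share of all genes are a description and not an independent test. All 9 passed the filter on low counts, together with the other genes that make up the 17013 tested. In N-Ras+AKT tumours, 6 of the 9 were higher after Prom1+ cells had been depleted and none was lower, where 12.8% of all genes tested were higher. In tumours induced with diethylnitrosamine (DEN) and carbon tetrachloride (CCl4), none of the 9 passed the test, where 0.370% of all genes passed.

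The data were RNA sequencing counts of 12 bulk libraries, 3 in each of 4 groups. Every library carries the genotype label Prom1C-L/+;Rosa26DTA/+, in which a tamoxifen-activated Cre made from the Prom1 locus switches on diphtheria toxin A. The DEN+CCl4 groups received DEN at 1 mg/kg at 14 days of age and CCl4 at 0.2 ml/kg from 8 weeks of age, and tumours were taken 16 days after the last tamoxifen dose. The N-Ras+AKT groups received the plasmids pT3-EF1a-NRasV12 and pT3-EF1a-myr-AKT (20 µg each, with 1.6 µg of Sleeping Beauty transposase) by hydrodynamic tail vein injection, which delivers DNA mainly to hepatocytes, and tumours were taken 6 days after the last dose. Tamoxifen was given in doses of 4 mg. The control group of each model has the same genotype label as its depletion group, while the design text also names Prom1+/+;Rosa26DTA/+ littermates and a vehicle, so which of these the control libraries came from is not settled by the labels. If controls received the vehicle, tamoxifen itself and the loss of Prom1+ cells cannot be told apart in the depletion comparisons. The labels do not say that the libraries of a group are separate animals, so the p-values measure the spread between these libraries, which may be technical. The models differ in both oncogenic insult and sampling day, and these cannot be told apart in a comparison between models.

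Uptake across the sinusoidal membrane uses organic anion transporting polypeptides, made from Slco genes, and an organic anion transporter, made from Slc22a7. Export uses ATP-driven pumps. The products of Abcc2 (MRP2) and Abcg2 (BCRP) sit in the canalicular membrane and pump conjugates into bile, whereas those of Abcc3 (MRP3) and Abcc4 (MRP4) sit in the basolateral membrane and return conjugates and bile salts to the blood. In liver, HNF4a helps to hold up basal expression of uptake transporters, and the receptors CAR (Nr1i3), PXR (Nr1i2), FXR (Nr1h4) and AHR and the factor NRF2 (Nfe2l2) induce subsets of both kinds. Loss of uptake transporters is a known feature of dedifferentiated liver tumours.

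Total counts ranged from 31306617 to 48055812 per library. Mitochondrial transcripts made up 5.63% to 6.06% of counts in the controls and 7.89% to 8.24% in the depletion libraries of DEN+CCl4. In N-Ras+AKT the shares were 4.86% to 7.02% and 7.79% to 9.77%, and the groups overlapped in neither model. The ribosomal RNA gene CT010467.1 took 3.02% to 12.4% of counts in DEN+CCl4 controls and 0.586% to 5.06% in the other 9 libraries. The part of these shares in the depletion results was not tested. The targeted gene Prom1 was lower after depletion with no overlap in both models, and passed the test in N-Ras+AKT (log2 fold change −2.90, adjusted p = 0.00953) but not in DEN+CCl4 (−0.995, adjusted p = 0.381). Hepatocyte markers were abundant in all 12 libraries, with Alb between 44421 and 193966 CPM (a gene's counts scaled to library size, with sizes adjusted by the trimmed mean of M values). DEN+CCl4 depletion 6 and N-Ras+AKT depletion 17 were each the library farthest from the other 2 of its group over all genes tested, with mean differences of 0.825 and 0.754 in log2 CPM (root mean square), against 0.584 to 0.701 in the other 10. Among the 9 transporters, N-Ras+AKT depletion 17 held the highest value of its group for 7, N-Ras+AKT control 10 for 8, and N-Ras+AKT control 3 the lowest for 6. All 12 libraries held Y-linked transcripts (Ddx3y 57.5 to 92.4 CPM) and little Xist (0.0925 to 1.41 CPM), which bears on Slco1a1, a male-predominant gene of mouse liver.

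Slco1b2, Slco1a4 and Slco1a1 lie near each other on chromosome 6 (GRCm38, 141629518 to 141946962), in a run of organic anion transporter genes between Slco1c1 and Slco1a5. The stretch upstream of the start of each is shown, because these genes of the same stretch differed in level, together with that of Abcc4. In the main fit, neither Abcc4 nor Slco1a1 passed the test in any of the 5 comparisons. RefSeq holds a promoter window on GRCm38.p6 for 7 of the 9 genes. In the letters below, written from 5′ to 3′ on the strand of the gene and ending at the base before the start, capitals mark the motifs found. No motif was found in the Slco1a4 window.
Slco1b2, chr6:141629268-141629517, plus strand: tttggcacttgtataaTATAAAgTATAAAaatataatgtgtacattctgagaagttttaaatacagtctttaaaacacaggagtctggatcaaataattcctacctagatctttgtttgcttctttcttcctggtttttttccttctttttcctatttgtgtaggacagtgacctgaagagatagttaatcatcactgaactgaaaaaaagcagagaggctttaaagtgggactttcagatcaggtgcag
Slco1a4, chr6:141856221-141856470, minus strand: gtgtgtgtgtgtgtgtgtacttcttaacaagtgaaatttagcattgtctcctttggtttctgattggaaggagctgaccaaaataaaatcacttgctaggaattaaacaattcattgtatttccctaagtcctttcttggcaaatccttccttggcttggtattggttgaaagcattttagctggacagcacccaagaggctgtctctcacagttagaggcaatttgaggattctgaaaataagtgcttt
Slco1a1, chr6:141946963-141947212, minus strand: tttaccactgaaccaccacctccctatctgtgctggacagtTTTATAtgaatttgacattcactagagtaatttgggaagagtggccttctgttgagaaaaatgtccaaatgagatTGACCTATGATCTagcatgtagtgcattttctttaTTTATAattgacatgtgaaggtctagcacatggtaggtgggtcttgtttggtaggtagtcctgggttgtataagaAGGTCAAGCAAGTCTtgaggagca
Abcc4, chr14:118706220-118706469, minus strand: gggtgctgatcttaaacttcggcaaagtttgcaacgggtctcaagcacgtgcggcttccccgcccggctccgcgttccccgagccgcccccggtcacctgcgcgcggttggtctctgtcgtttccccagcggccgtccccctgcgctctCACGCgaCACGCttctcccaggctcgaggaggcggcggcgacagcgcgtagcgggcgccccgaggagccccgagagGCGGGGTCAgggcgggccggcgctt
The Slco1b2 stretch holds TATAAA at positions −234 to −229 and −227 to −222, counted back from the start. The Slco1a1 stretch holds TATAAA on the reverse strand at −209 to −204 and −99 to −94, a motif present in 13.6% of the 32851 RefSeq promoter windows of the same length. It also holds a pair of AGGTCA copies 1 base apart, the kind of direct repeat that HNF4a binds, on the reverse strand at −134 to −122 with 1 mismatch, and a pair 3 bases apart at −24 to −10 with 2 mismatches. With up to 2 mismatches allowed, these repeats occur in 3.86% and 3.06% of all windows. The Abcc4 stretch has 72% G and C, against 33.6% to 40.4% in the 3 Slco stretches, and holds the AHR core GCGTG on the reverse strand at −101 to −97 and −94 to −90 (32.4% of windows), and the NRF2 element TGACNNNGC on the reverse strand at −25 to −17 (12.4% of windows). The other motifs searched on both strands reported here were AGGTCA copies 4 bases apart (up to 2 mismatches, 3.02% of windows) and TGAACT and AGGTCA 6 bases apart (up to 3 mismatches, 17.5%). Of the windows not shown, that of Abcc2 holds the NRF2 element at −98 to −90 and a match of the 6-base everted repeat with 3 mismatches at −74 to −57. That of Abcg2 holds TATAAA from 41 to 46 bases after the start. A match describes letters and not binding.

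To compare levels between genes, CPM was divided by the length of each gene's merged exons in kilobases (kb). On this scale Abcc2 was the most abundant of the 9 in 3 groups, at 131 ± 28.9 CPM per kb (SD, n = 3) in DEN+CCl4 controls, 124.7 ± 26.7 in DEN+CCl4 depletion and 53.8 ± 18.8 in N-Ras+AKT controls. Its libraries overlapped those of the next gene, Abcc3 in DEN+CCl4 depletion and Slco1b2 in N-Ras+AKT controls. In N-Ras+AKT depletion Slco1b2 held that place with 153.8 ± 42.0 CPM per kb, above Abcc2 at 93.0 ± 13.4 with no overlap of libraries. Abcc3, Slco1b2 and Abcc2 took the first 3 places in every group. Abcc3 ranked above Slco1b2 with no overlap in both DEN+CCl4 groups (55.4 ± 4.09 against 38.1 ± 5.43 in controls), the libraries of these genes overlapped in N-Ras+AKT controls (21.2 ± 6.27 against 35.4 ± 17.9), and Slco1b2 ranked above Abcc3 with no overlap in N-Ras+AKT depletion. Slco1a4, Slco2b1, Abcc4 and Abcg2 lay between 2.89 and 20.1 CPM per kb as group means. By group mean, Slco1a1 and Slc22a7 took the last 2 places in every group, with means from 0.243 to 3.56 CPM per kb. Their libraries overlapped each other in both depletion groups. Those of Slco1a1 also overlapped those of Slco2b1 in DEN+CCl4 depletion, and those of both genes overlapped those of Abcc4 in N-Ras+AKT depletion. In DEN+CCl4 controls Slc22a7 stood above Slco1a1 with no overlap, and in N-Ras+AKT controls Slco1a1 stood above Slc22a7 with no overlap.

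**Figure D1:**
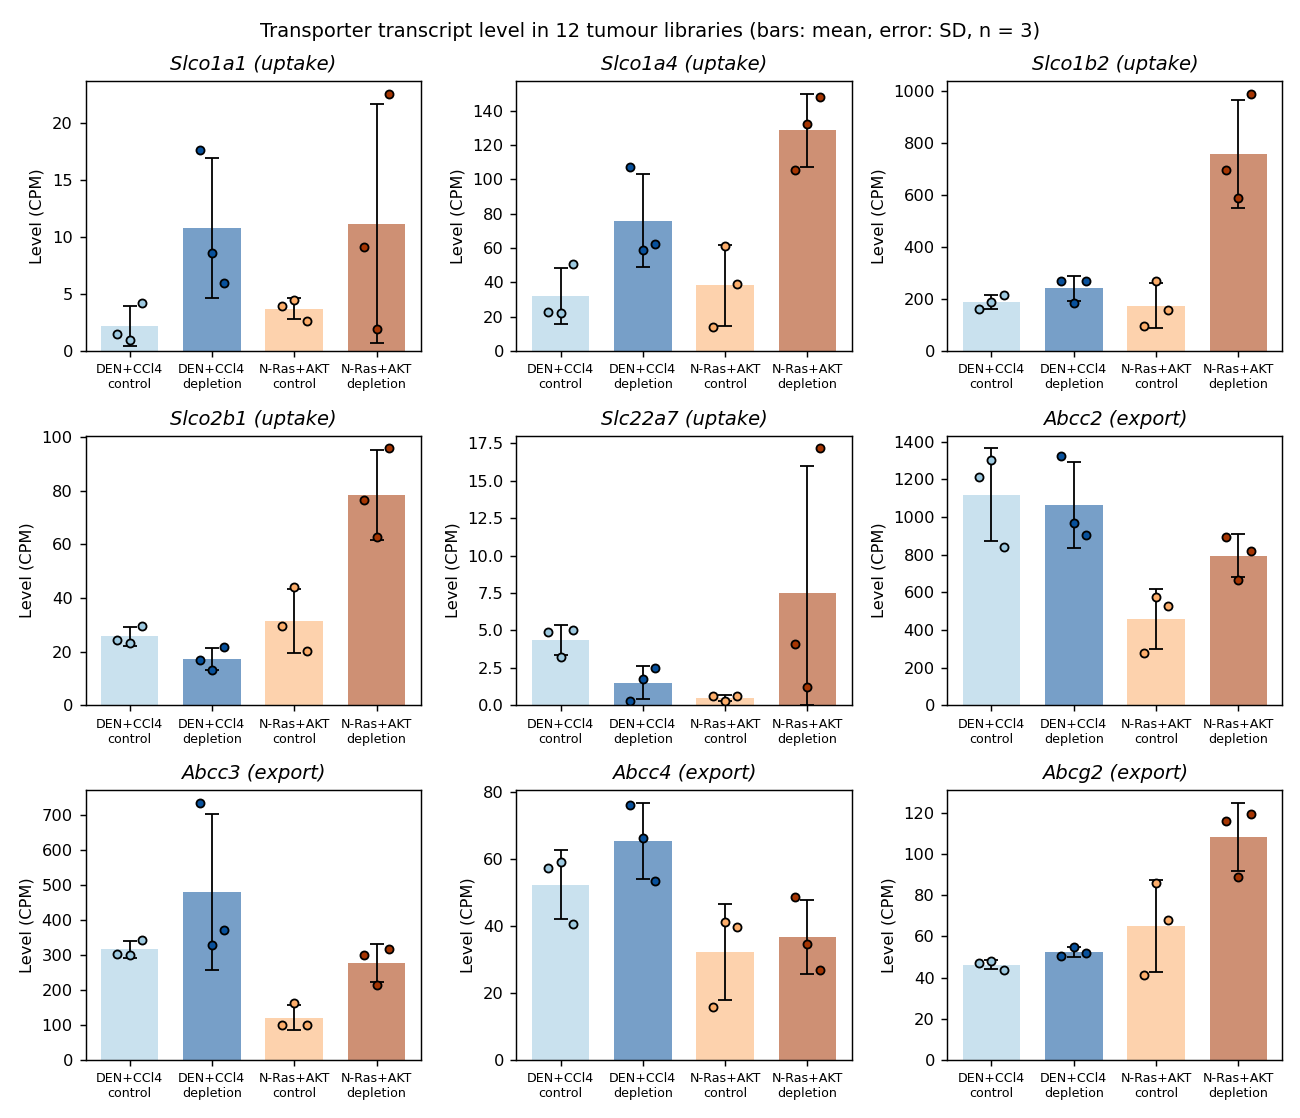
Level of each transporter in CPM (vertical axis from 0, own scale per gene) in the 4 groups; points are libraries, bars are means and error bars are SD (n = 3). The 3 N-Ras+AKT depletion libraries of Slco1b2 sit between 589 and 989 CPM, above the other 9, which reach at most 269 CPM.

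The effect of depleting Prom1+ cells in N-Ras+AKT tumours was examined first. Of the 9 transporters, 6 passed the test, all higher, comprising 4 of 5 uptake and 2 of 4 export genes. Across all genes tested, 12.8% passed with a higher level and 23.7% passed in either direction. For 7 of the 9 the depletion libraries all lay above the control libraries, which held for 21.4% of all genes. The log2 fold changes of the 5 uptake genes (1.32 to 3.86, median 1.75) all exceeded those of the 4 export genes (0.19 to 1.20, median 0.76), while the median of all genes was −0.02. The margin was small, with Slco2b1 at 1.32 (SE 0.27) and Abcc3 at 1.20 (SE 0.30). The order did not hold in every alternative analysis, as Slco1a1 was as low as 0.57, below the lowest value of Abcc3 (1.08). Without DEN+CCl4 depletion 6 and N-Ras+AKT depletion 17, the libraries that stood apart, 3 of 5 uptake and 1 of 4 export genes passed. In bulk RNA, fewer cells of a type and less RNA per cell cannot be told apart.

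Slco1b2, the mouse counterpart of the human hepatic uptake carriers for statins and conjugated bilirubin, stood at 95.3, 269 and 158 CPM in controls 3, 10 and 15 and at 696, 589 and 989 CPM in depletion 6, 11 and 17. The groups were far apart, and the lowest depletion library was above the highest control. Its log2 fold change was 2.12 (SE 0.34, adjusted p = 0.00374, edgeR quasi-likelihood test with Benjamini-Hochberg adjustment), or 4.35-fold, from 174.3 ± 88.1 to 758 ± 207 CPM (SD, n = 3). It passed in all 13 alternative analyses, between 1.83 and 2.58. Slco2b1, a carrier of steroid sulfates found in many tissues, gave 29.7, 44.0 and 20.4 CPM in controls and 76.6, 62.6 and 95.8 CPM in depletion libraries. These groups also did not overlap. Its log2 fold change of 1.32 (SE 0.27, adjusted p = 0.00775) passed in all 13 alternatives as well. Slco2b1 is overlapped on the other strand by Gm15635 and Gm34280, with which it shares 5.89% of its 50-base words, but these were counted at no more than 1.47 and 0.143 CPM in any library.

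Slco1a4, which takes up cardiac glycosides and bile salts and is known to be induced through PXR and CAR, measured 14.2, 61.3 and 39.2 CPM in controls 3, 10 and 15 and 106, 132 and 148 CPM in depletion 6, 11 and 17. All depletion libraries were above all controls, and the controls spread over a wide range with control 3 the lowest. Its log2 fold change was 1.75 (SE 0.50, adjusted p = 0.0299). The call was lost without control 3, control 15, depletion 6, depletion 11 or depletion 17, each left out alone, with log2 fold changes of 1.36, 1.77, 1.88, 1.73 and 1.63 and adjusted p between 0.0505 and 0.1003. It was also lost with no filter on low counts (adjusted p = 0.092) and without DEN+CCl4 depletion 6 and N-Ras+AKT depletion 17 together. Slc22a7, the organic anion transporter OAT2, known for carrying nucleotides and nucleosides, was scarce in controls, at 0.611, 0.276 and 0.646 CPM (15 to 37 counts). It reached 4.09, 1.19 and 17.2 CPM in depletion 6, 11 and 17 (54 to 761 counts), so the groups did not overlap but depletion 17 held most of the rise. Its log2 fold change was 3.86 (SE 0.95, adjusted p = 0.0168). Without depletion 17 it was 2.36 (adjusted p = 0.0624), and the call was also lost without control 3 (4.02, adjusted p = 0.058) or control 15 (4.07, adjusted p = 0.0542), with no filter (0.0552) and with limma-voom (0.0642).

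Slco1a1, a carrier of bile salts and steroid conjugates, was the uptake gene that did not pass. It measured 3.96, 4.44 and 2.65 CPM in controls and 9.08, 1.87 and 22.6 CPM in depletion 6, 11 and 17. Depletion 11 lay below every control and depletion 17 well above them. The log2 fold change was 1.60 (SE 0.79, adjusted p = 0.166), and without depletion 11 it was 2.11 (adjusted p = 0.0426). Over the 13 alternative analyses it ranged from 0.57 to 2.11, with adjusted p up to 0.682. Slco1a1 and Slco1a4 share 1.64% and 1.61% of their 50-base words with paralogs, so few reads could be split between them.

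Among the exporters, Abcc3 rose. This basolateral pump of glucuronide conjugates measured 99.5, 162 and 100.4 CPM in controls 3, 10 and 15 and 300.6, 214 and 315 CPM in depletion 6, 11 and 17, without overlap. Its log2 fold change was 1.20 (SE 0.30, adjusted p = 0.0165), with the call lost without control 3, control 15 or depletion 17 (1.08, 1.09 and 1.09, adjusted p between 0.063 and 0.0667). Abcg2, the canalicular pump of sulfate conjugates and urate, measured 41.2, 86.0 and 67.9 CPM in controls and 116, 89.1 and 119.6 CPM in depletion libraries, a small gap between control 10 and depletion 11. Its log2 fold change was 0.74 (SE 0.21, adjusted p = 0.0274). The call was lost without control 3, control 15, depletion 6 or depletion 17 (0.49, 0.77, 0.69 and 0.65, adjusted p between 0.0506 and 0.101), and in a fit of only the groups compared (0.0933). Leaving out DEN+CCl4 depletion 6 and N-Ras+AKT depletion 17 together also lost it.

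Abcc2, the main canalicular pump of bilirubin and glutathione conjugates, measured 276, 574 and 527 CPM in controls and 892, 668 and 820.3 CPM in depletion libraries. All depletion libraries were above all controls, yet the log2 fold change of 0.79 (SE 0.28, adjusted p = 0.0584) did not pass. It passed without control 10 (0.98, adjusted p = 0.0389), with DESeq2 (0.0216) and with limma-voom (0.041). Abcc4, the basolateral pump of bile salts and cyclic nucleotides, measured 15.7, 41.1 and 39.8 CPM in controls and 48.5, 34.5 and 26.9 CPM in depletion libraries. Those ranges overlapped, with a log2 fold change of 0.19 (SE 0.34, adjusted p = 0.730), and the sign turned without control 3 (−0.14) or depletion 6 (−0.06).

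**Figure D2:**
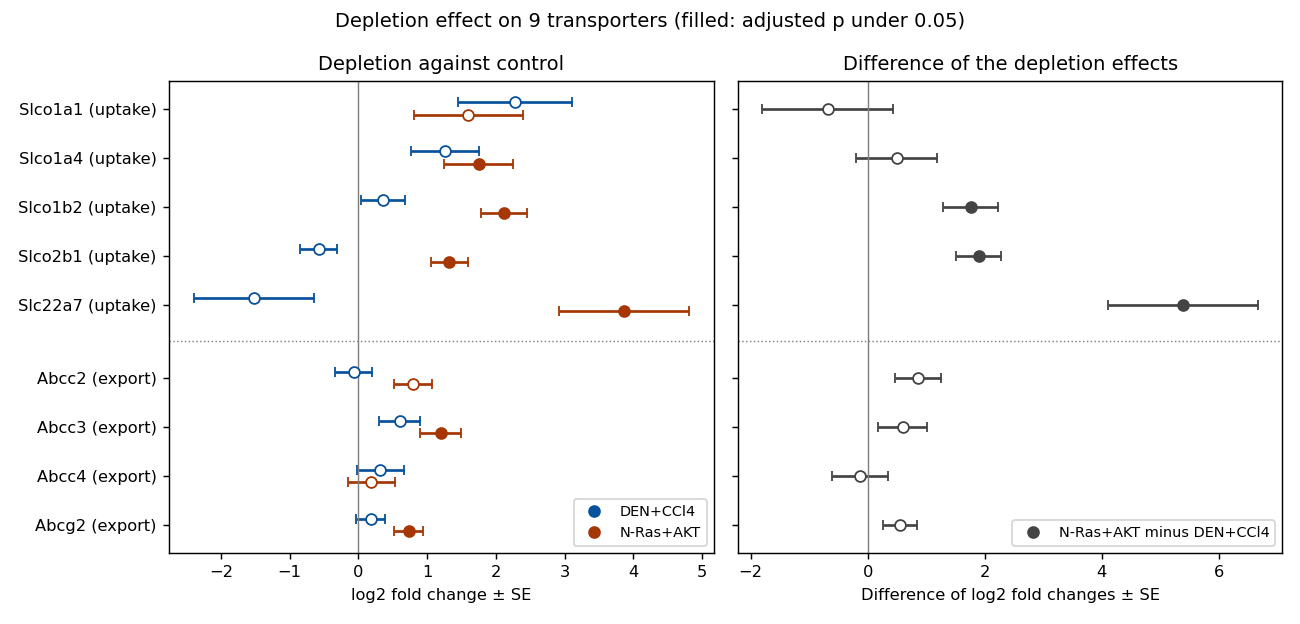
Left, log2 fold change of depletion against control for each transporter in DEN+CCl4 (blue) and N-Ras+AKT (brown) tumours; right, the difference of those effects. Bars are SE, and filled points have an adjusted p under 0.05; the filled points are 6 genes in N-Ras+AKT, none in DEN+CCl4, and Slco1b2, Slco2b1 and Slc22a7 in the difference.

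In DEN+CCl4 tumours the same comparison gave 0 of 9 with edgeR, with DESeq2 and with limma-voom, beside 0.370% of all genes with edgeR. At an unadjusted p under 0.05 there were 2 of 9 (18.7% of all genes), Slco1a1 and Slco1a4. Depletion and control libraries did not overlap for 5 of 9, against 27.5% of all genes. Slco1a1 measured 1.46, 0.938 and 4.20 CPM in controls 7, 8 and 13 and 17.7, 8.59 and 5.98 CPM in depletion 6, 9 and 10, with a log2 fold change of 2.28 (SE 0.83, adjusted p = 0.181). Slco1a4 measured 22.9, 21.8 and 50.9 CPM in controls and 107, 58.6 and 62.5 CPM in depletion libraries, with a log2 fold change of 1.25 (SE 0.50, adjusted p = 0.213). For both, control 13 was the highest control and depletion 6 the highest of all.

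Slco2b1 and Slc22a7 had lower levels after depletion. Slco2b1 measured 24.3, 23.2 and 29.7 CPM in controls and 16.8, 13.3 and 21.7 CPM in depletion libraries (log2 fold change −0.58, SE 0.27, adjusted p = 0.281), with all depletion libraries below all controls. Slc22a7 measured 4.91, 3.23 and 5.01 CPM in controls and 0.313, 1.75 and 2.47 CPM in depletion libraries, also without overlap (−1.52, SE 0.87, adjusted p = 0.380). Depletion 6, the highest library for Slco1a1 and Slco1a4, was the lowest for Slc22a7, with 9 counts. Slco1b2 measured 161, 188 and 214 CPM in controls and 268.5, 186 and 268 CPM in depletion libraries and overlapped (0.36, SE 0.33, adjusted p = 0.594).

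The exporters also did not pass in this model, with log2 fold changes from −0.07 to 0.60 and adjusted p from 0.304 to 0.923. Abcc2 measured 1212, 1303 and 838 CPM in controls and 1325, 967 and 902 CPM in depletion libraries, with overlapping ranges, and its log2 fold change of −0.07 (SE 0.28) changed sign without control 8 (0.06) or depletion 10 (0.04). Abcc3 measured 303, 301 and 342 CPM in controls and 735, 329.7 and 371 CPM in depletion libraries, where depletion 6 stood apart (0.60, SE 0.30). Without depletion 6 and N-Ras+AKT depletion 17 together, Abcc3 had a log2 fold change of 0.16 in this model (adjusted p = 0.825). Abcc4 measured 57.3, 59.1 and 40.5 CPM in controls and 76.3, 66.4 and 53.5 CPM in depletion libraries (0.32, SE 0.34). Abcg2 was the steadiest gene, at 47.1, 48.01 and 43.6 CPM in controls and 50.4, 54.8 and 52.1 CPM in depletion libraries, without overlap but with a log2 fold change of 0.18 (SE 0.21).

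Whether depletion had a different effect in the N-Ras+AKT and DEN+CCl4 models was tested with the difference of the 2 log2 fold changes. Of the 9 transporters, 3 passed, all with a higher value in N-Ras+AKT and all uptake genes, beside 7.98% of all genes in that direction and 11.6% in either. Without DEN+CCl4 depletion 6 and N-Ras+AKT depletion 17 together, 1 of the 9 passed, Slc22a7 (3.40, adjusted p = 0.0318). Slco2b1 had a difference of 1.90 (SE 0.38, adjusted p = 0.0149) and kept its call without each of the 12 libraries in turn, but not without DEN+CCl4 depletion 6 and N-Ras+AKT depletion 17 together (1.70, adjusted p = 0.0589). Slco1b2 had a difference of 1.76 (SE 0.47, adjusted p = 0.033). Its call was lost without any of DEN+CCl4 control 7, 8 or 13, DEN+CCl4 depletion 6 or 9, N-Ras+AKT control 15, or N-Ras+AKT depletion 6 or 17, with differences from 1.503 to 1.87 and adjusted p from 0.0518 to 0.0834. It was also lost with no filter (0.0643) and without DEN+CCl4 depletion 6 and N-Ras+AKT depletion 17 together (1.60, adjusted p = 0.104). Slc22a7 had a difference of 5.39 (SE 1.28, adjusted p = 0.0256), lost without DEN+CCl4 control 7 or 13, DEN+CCl4 depletion 9, or N-Ras+AKT control 3 or 15, with differences from 5.28 to 5.58 and adjusted p from 0.0523 to 0.0599, and with no filter or limma-voom (0.0773 and 0.0638). Slco1a1 (−0.68, SE 1.11) and Slco1a4 (0.50, SE 0.69) had wide errors and did not pass, and the value of Slco1a4 was −0.01 without DEN+CCl4 control 13. The exporters had differences from −0.13 to 0.86 (adjusted p from 0.167 to 0.888), of which that of Abcc4 (−0.13, SE 0.48) was between 0.02 and 0.08 without DEN+CCl4 control 13 or without N-Ras+AKT control 10, control 15 or depletion 17.

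Uptake was then set against export within each library. The summed level of the 4 exporters was 4.14 times that of the 5 uptake genes as a mean over DEN+CCl4 controls (2.85 to 4.90), 3.40 times in DEN+CCl4 depletion (2.65 to 3.90) and 1.95 times in N-Ras+AKT controls (1.55 to 2.21), all in CPM per kb. In N-Ras+AKT depletion the ratio was 0.858, with 1.03, 0.872 and 0.676 in depletion 6, 11 and 17. These 3 libraries lay below the other 9. A ratio under 1 depended on the division by exon length. In plain CPM the exporters summed to 1357, 1005 and 1282 in depletion 6, 11 and 17, and the uptake genes to 892, 787 and 1272. The export sum was thus the larger in each. The sum is led by the most abundant genes. Slco1b2 made up 40.0% to 47.5% of the 9 genes' summed CPM per kb in N-Ras+AKT depletion, against 22.8% to 29.5% in N-Ras+AKT controls and 12.9% to 21.3% in the DEN+CCl4 libraries. Abcc2 made up 22.8% to 29.6% in N-Ras+AKT depletion, against 36.3% to 57.0% in the other 9 libraries.

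A measure that weighs every gene alike, the mean log2 CPM of the uptake genes minus that of the exporters, was −3.38 ± 0.62 (SD, n = 3) in DEN+CCl4 controls, −3.30 ± 0.33 in DEN+CCl4 depletion, −2.98 ± 0.27 in N-Ras+AKT controls and −1.84 ± 0.80 in N-Ras+AKT depletion. The N-Ras+AKT depletion libraries gave −2.09, −2.48 and −0.94, all above the other 9 libraries, whose highest value was −2.68. Between depletion and control the measure differed by 1.15 in N-Ras+AKT and by 0.08 in DEN+CCl4. Without N-Ras+AKT depletion 17 the former was 0.70, and without each of the other N-Ras+AKT libraries it was between 1.04 and 1.47. Without Slco1a1 and Slco1a4, the DEN+CCl4 value was −0.95. It was also negative without DEN+CCl4 control 7 (−0.03), control 8 (−0.16) or depletion 10 (−0.09).

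**Figure D3:**
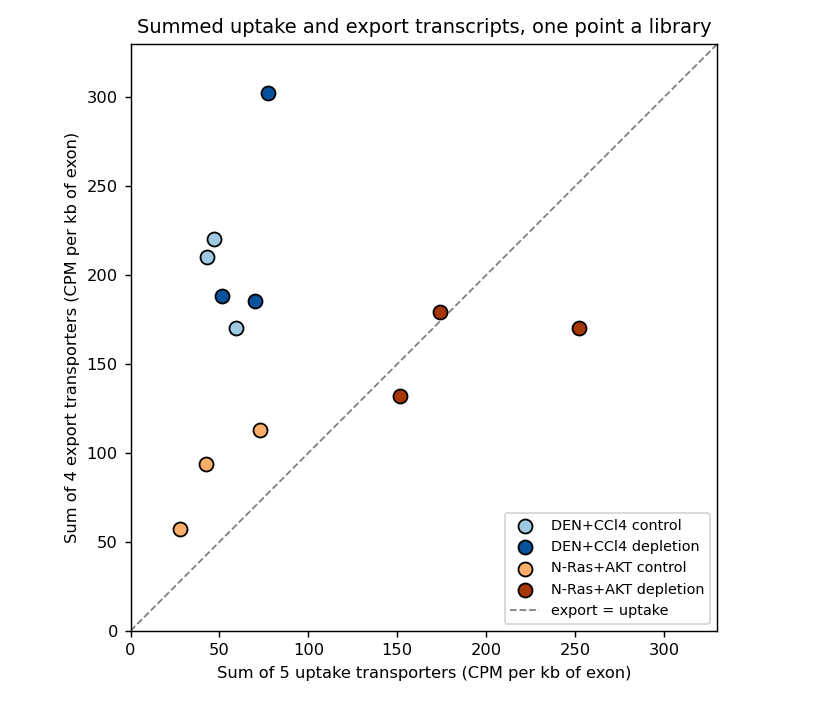
Sum of the 4 export transporters against the sum of the 5 uptake transporters, both in CPM per kb of exon, with a point for each of the 12 libraries and a dashed line where the sums are equal. The DEN+CCl4 libraries lie high on the left, the N-Ras+AKT controls low on the left, and the N-Ras+AKT depletion libraries close to or below the line, at ratios of 1.03, 0.872 and 0.676.

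**Figure D4:**
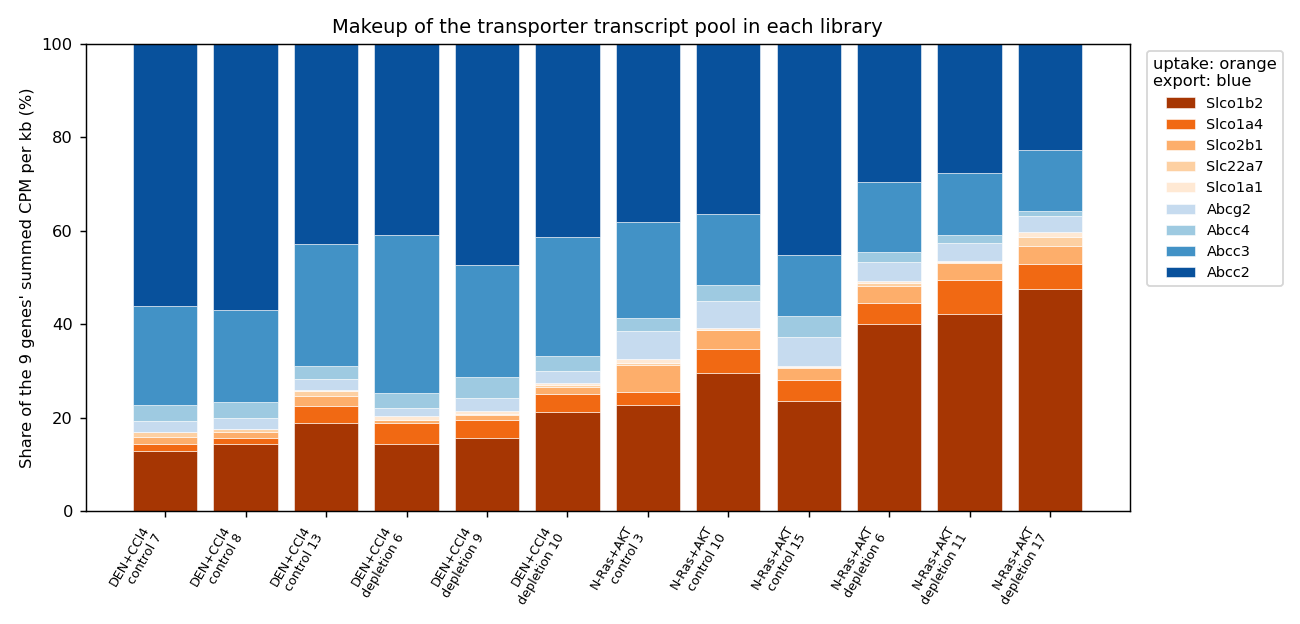
Share of each transporter in the summed CPM per kb of the 9 genes (vertical axis, percent) in each library (horizontal axis); uptake genes are orange and exporters blue. The dark orange share of Slco1b2 is 40.0% to 47.5% in the 3 N-Ras+AKT depletion libraries and at most 29.5% in the other 9.

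The control tumours of the models were compared next, a comparison that shares its control libraries with both depletion comparisons. Of the 9 transporters, 3 were lower in N-Ras+AKT controls and none was higher, beside 19.8% of all genes lower and 40.6% in either direction. Abcc2 was 2.43-fold lower (log2 fold change −1.28, SE 0.28, adjusted p = 0.00365), from 1118 ± 246 to 459 ± 160.3 CPM, and Abcc3 was 2.62-fold lower (−1.39, SE 0.30, adjusted p = 0.00376), from 315.5 ± 23.3 to 121 ± 35.7 CPM. Both kept their calls in all 13 alternatives. Slc22a7 fell from 4.38 ± 1.00 to 0.511 ± 0.204 CPM (−3.09, SE 0.93, adjusted p = 0.0226), a call lost without DEN+CCl4 control 7 or 13 or without N-Ras+AKT control 3, 10 or 15 (−2.79 to −3.29, adjusted p from 0.0516 to 0.0743) and with no filter or limma-voom (0.0754 and 0.054). Abcc4 (−0.70, SE 0.34, adjusted p = 0.123) and Abcg2 (0.49, SE 0.21, adjusted p = 0.0825) did not pass, and Abcg2 passed without N-Ras+AKT control 3 (0.74, adjusted p = 0.00345) and with upper-quartile scaling (0.046). The Slco genes differed by −0.11 to 0.74 with adjusted p from 0.420 to 0.820. Among these, the sign turned for Slco1b2 without N-Ras+AKT control 3 (0.19), and for Slco1a4 (−0.26) and Slco2b1 (−0.04) without N-Ras+AKT control 10.

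After depletion, 3 of the 9 were higher in N-Ras+AKT than in DEN+CCl4 tumours and none was lower, beside 17.9% of all genes higher and 33.7% in either direction. Slco2b1 was 4.55-fold higher (log2 fold change 2.18, SE 0.28, adjusted p = 0.000246), Slco1b2 3.15-fold higher (1.65, SE 0.33, adjusted p = 0.00318) and Abcg2 2.07-fold higher (1.05, SE 0.21, adjusted p = 0.00309). All of these calls held in the 13 alternatives. Abcc2, Abcc3 and Abcc4 had lower levels in every N-Ras+AKT depletion library than in every DEN+CCl4 depletion library, with log2 fold changes of −0.42, −0.79 and −0.84 that did not pass (adjusted p = 0.258, 0.0602 and 0.0819). Of all genes, 22.3% were lower without overlap in this comparison. Abcc3 passed without DEN+CCl4 depletion 9 (−0.998, adjusted p = 0.0327) or 10 (−0.94, adjusted p = 0.0494). With DESeq2, Abcc3, Abcc4 and Slc22a7 passed (adjusted p = 0.0241, 0.0342 and 0.0372), and Abcc4 also passed in a fit of only the groups compared (0.0318). Slc22a7 had a log2 fold change of 2.30 (adjusted p = 0.0674), or 2.80 (adjusted p = 0.0194) without N-Ras+AKT depletion 11. Over the 13 alternatives its log2 fold change ranged from 0.28 to 2.83, with adjusted p up to 0.738. Slco1a4 (0.76, adjusted p = 0.258) and Slco1a1 (0.06, adjusted p = 0.963) did not pass, and Slco1a1 turned negative without DEN+CCl4 depletion 9 (−0.08) or 10 (−0.23) or N-Ras+AKT depletion 17 (−0.998).

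Other transporters were counted from lists of related carriers. Of 16 tested uptake carriers, 8 rose and 1 fell with depletion in N-Ras+AKT tumours (median log2 fold change 0.85), beside 23.7% of all genes passing. Slc10a1, the sodium-dependent bile salt carrier NTCP, rose from 41.4 ± 14.1 to 198 ± 72.7 CPM (log2 fold change 2.26, adjusted p = 0.00334). The orphan carriers Slc22a26, Slc22a28 and Slc22a29 rose by 3.80, 3.31 and 1.58 on the log2 scale, although Slc22a28 averaged 1.503 CPM after depletion and lost its call without control 3, 10 or 15 or depletion 17 (1.56 to 3.77, adjusted p up to 0.286). Slco3a1, a broadly expressed relative of the members, was the carrier that fell, by 2.25 on the log2 scale, from 29.5 ± 6.79 to 6.17 ± 2.05 CPM (adjusted p = 0.00334).

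Of 16 other exporters, 6 rose and none fell (median 0.42), beside 12.8% of all genes higher. They included the canalicular bile salt pump Abcb11 (1.86, adjusted p = 0.00376), the phospholipid floppase Abcb4 (1.27, adjusted p = 0.00334), the cation and proton exchanger Slc47a1 (1.90, adjusted p = 0.00507) and Abcc6 (1.35, adjusted p = 0.00334). Abcc12 (1.32, adjusted p = 0.0193) lost its call without control 3 or depletion 17, and Abcg8 (1.16, adjusted p = 0.0214), which pumps sterols with its partner Abcg5, without control 15, depletion 11 or depletion 17 (adjusted p up to 0.0745 and 0.067). The multidrug exporters Abcb1a (−0.31) and Abcc1 (−0.38) did not pass. In DEN+CCl4 tumours, none of the 16 uptake carriers and none of the 16 exporters passed, with medians of −0.19 and 0.01. Between control tumours, 2 of the uptake carriers were higher and 6 lower in N-Ras+AKT, and 3 of the exporters were higher and 8 lower. Of all genes tested, 19.8% were lower in that comparison and 40.6% passed in either direction.

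**Figure D5:**
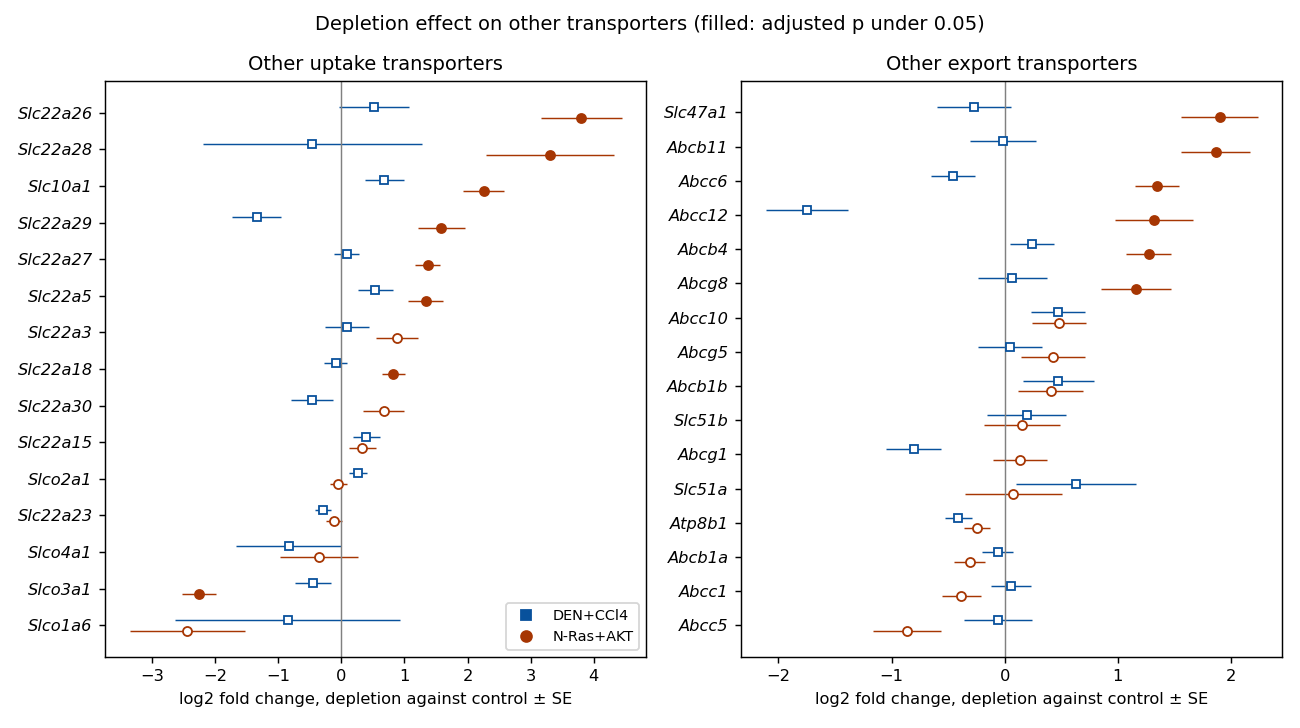
Log2 fold change of depletion against control for 15 other uptake carriers (left) and 16 other exporters (right) in DEN+CCl4 (squares) and N-Ras+AKT (circles) tumours; bars are SE and filled symbols have an adjusted p under 0.05. In N-Ras+AKT, 7 of the carriers shown and 6 exporters are filled to the right of 0 and Slco3a1 to the left, and no DEN+CCl4 symbol is filled.

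The neighbours of the members on chromosome 6 were nearly silent. Slco1c1, Gm5724, Gm6614, Slco1a6 and Slco1a5 reached at most 0.215, 0.0348, 0.239, 1.01 and 0.0825 CPM in any library. Of these only Slco1a6 had enough counts to be tested, and it had a log2 fold change of −2.44 (adjusted p = 0.0716) in N-Ras+AKT tumours, opposite in sign to those of Slco1b2, Slco1a4 and Slco1a1.

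Of 18 transcription factors known to regulate hepatocyte transporters, 6 rose and 1 fell with depletion in N-Ras+AKT tumours (median 0.20), beside 12.8% of all genes higher and 23.7% in either direction. Nr1i3, which encodes CAR, rose from 15.6 ± 9.23 to 79.2 ± 18.8 CPM (log2 fold change 2.35, SE 0.43, adjusted p = 0.00573). It stood at 80.3 ± 19.6 CPM in DEN+CCl4 controls. Stat5b rose by 0.72 (adjusted p = 0.00853). Rxra (0.65), Hnf4a (0.56) and Nr1h4 (0.46) rose by less, and all lost their calls without depletion 17. Rxra also lost its call without control 3 (adjusted p up to 0.0654), Hnf4a without control 3 or 15 (up to 0.0879) and Nr1h4 without control 15 (up to 0.0716). None of the 18 passed in DEN+CCl4 tumours. Between controls, 2 were higher and 10 lower in N-Ras+AKT, beside 40.6% of all genes in either direction.

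Textbook targets of these factors were counted in the same way, against the same 12.8% of all genes higher in N-Ras+AKT depletion and 0.370% passing in DEN+CCl4. Of 8 tested targets of CAR and PXR, 5 rose in N-Ras+AKT depletion, among them Cyp2c29 (2.96, adjusted p = 0.00816), Ugt1a1, which conjugates bilirubin (1.91, adjusted p = 0.0052), and Cyp3a11 (2.07, adjusted p = 0.0149). Without N-Ras+AKT depletion 17 and DEN+CCl4 depletion 6, 3 of the 8 passed. The Cyp3a11 call was lost without control 15 or depletion 17 (adjusted p up to 0.0623). In DEN+CCl4 none of the 8 passed, with a median of 1.08 and values from −2.38 to 3.45. Their sums there were 2017 to 3137 CPM in controls and 3694 to 7419 CPM in depletion libraries, without overlap. In the difference between models 1 of the 8 passed higher and 1 lower, and Cyp2c29 did not pass (−0.21, adjusted p = 0.896). Of 11 NRF2 targets, 2 rose in N-Ras+AKT (Gstm1 1.22 and Gclm 0.42), a share near that of all genes, and in DEN+CCl4 2 fell (Gclc −1.23, adjusted p = 0.0313, and Cbr3 −4.21, adjusted p = 0.0195). The Gstm1 call was lost without N-Ras+AKT control 3 or 15 (adjusted p up to 0.0654), and the Gclm call without those or depletion 6 or 17 (up to 0.102). Both falls lost their calls without DEN+CCl4 control 7 or 8 or depletion 6 or 9 (up to 0.171 and 0.107). Of 5 AHR targets tested, 2 rose and 1 fell in N-Ras+AKT, with Cyp1a2 rising by 2.24 (adjusted p = 0.00876) and Cyp1b1 falling by 2.27 on the log2 scale (adjusted p = 0.0229, lost without control 10, 0.054). Cyp1a1 rose by 2.09 from 0.317 to 1.36 CPM, a call lost without control 3 or 15 (adjusted p up to 0.0591). The FXR targets that rose were Abcb11 and Abcb4, already counted as exporters.

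Markers of cell types shifted along with the transporters in N-Ras+AKT tumours, where 12.8% of all genes rose and 23.7% passed in either direction. Of 19 hepatocyte markers tested, 9 rose and none fell (median 0.66). Their summed level, most of it Alb, was 84453 to 88624 CPM in controls and 84275 to 97157 CPM in depletion libraries, overlapping ranges. Their mean log2 CPM, which weighs every marker alike, did not overlap. It was 9.35, 9.84 and 9.34 in controls 3, 10 and 15 and 10.18, 10.51 and 10.73 in depletion 6, 11 and 17. Of 14 pericentral hepatocyte markers, 11 rose (median 2.39), with sums of 620.5 to 1378 CPM in controls and 3742 to 6169 CPM in depletion libraries. Of 15 bile duct and progenitor markers tested, 9 fell and none rose (median −2.08), with sums of 8556 to 11788 CPM in controls and 1079 to 4557 CPM in depletion libraries. Of 14 macrophage markers, 12 rose (248 to 473 CPM against 689.5 to 901.5 CPM), and 7 without the pair of libraries that stood apart. Of 12 periportal hepatocyte markers, 4 rose and 1 fell (median 0.47). Markers of T and NK cells (7 of 13, median 1.48) and of B and plasma cells (5 of 10, median 1.89) also rose, with sums of 3.63 to 7.53 against 10.2 to 19.5 CPM and 4.42 to 4.77 against 7.09 to 16.7 CPM. Without that pair of libraries, edgeR called 1 of the 13 and 0 of the 10. No marker of these lists was at 0 throughout a group. In DEN+CCl4 tumours no marker of these lists passed, and the hepatocyte sums were 217259 to 279948 CPM in controls and 184371 to 237226 CPM in depletion libraries. Kidney and intestine, which also use several of these transporters, were represented by 8 markers with sums of at most 60.4 CPM and 2 to 4 of the 8 at 0 in a group. The part of these shifts in the transporter results was not tested.

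Between control tumours, where 19.8% of all genes were lower and 40.6% passed in either direction, the hepatocyte markers differed as well. Of these markers, 15 of 19 were lower and 1 higher in N-Ras+AKT, and 13 of 15 bile duct markers were higher. The lower Abcc2 and Abcc3 levels of N-Ras+AKT controls stood beside that difference, whereas Slco1b2 did not pass there (−0.11, SE 0.33). After depletion, 9 of 19 hepatocyte markers were lower and 2 higher in N-Ras+AKT than in DEN+CCl4 tumours, beside 33.7% of all genes in either direction. Slco1b2, Slco2b1 and Abcg2 were higher in N-Ras+AKT. The part of hepatocyte content in these differences was not tested.

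The similarity of profiles across the 12 libraries was described with Pearson's r of log2 CPM against 13041 genes of at least 1 CPM on average. The libraries share groups and depth, and r carries no test. Slco1b2 was most like Abcb4 and the pericentral enzyme Cyp2e1 (r = 0.981 for each) and Spop (0.976). Slco2b1 was most like Tmie (0.983), Stradb (0.979) and Rdh7 (0.976). Slco1a4 was most like Traf3ip2 (0.959), Ngly1 (0.952) and Cyp2c50 (0.947), and Slc22a7 most like Samhd1 (0.965), Tor1aip2 (0.959) and Slc26a1 (0.949). The least matched was Slco1a1, whose nearest profiles were Fbxo32 (0.863), Cyp4f17 (0.855) and Angel1 (0.854). Among exporters, Abcc3 was most like Sidt2 (0.989), Etfrf1 (0.979) and Dnajb12 (0.978), Abcc2 most like Atl3 and Zdhhc9 (0.959 for each) and Mia2 (0.955), Abcg2 most like Immt (0.965), Zfp91 and Dld (0.963 for each), and Abcc4 most like Ano10 (0.945), Urb2 (0.916) and Pdzd8 (0.907).

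Within the 9 genes, the closest pairs were Slco1a4 with Slco1b2 (r = 0.875 over all libraries and 0.814 in residuals from the group means), Slco1b2 with Abcg2 (0.865 and 0.802) and Abcc2 with Abcc4 (0.865 and 0.878). Abcc2 and Abcc3 had r = 0.862 over all libraries and 0.551 in residuals. Slc22a7 had residual r between −0.409 and 0.402 with the other 8. In residuals, the closest genes to the uptake members were Tbc1d9b for Slco1a1 (0.948), the macrophage receptor gene Cd163 for Slco1a4 (0.981), Aldh3a2 for Slco1b2 (0.972), Dhdh for Slco2b1 (0.938) and Nrp1 for Slc22a7 (0.981). Those closest to the exporters were the NRF2 target Txnrd1 for Abcc2 (0.956), Rnpep for Abcc3 (0.963), Ttc7 for Abcc4 (0.936) and Mttp for Abcg2 (0.985).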

How the data were processed

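Bulk RNA from tumours of 12 libraries was sequenced, 3 in each of 4 groups. The authors deposited whole-number counts per gene, not normalized, per the file headers and values. STAR 2.7.3, RSEM 1.3.1 and the build mm10 are listed in the submitters' processing notes with no role, so whether the counts are rounded estimates, the annotation and the strand setting are not stated by any source used here. Ensembl identifiers were matched to GENCODE M21 symbols (55154 of 55335 genes; the other 181 held 0.00642% of counts). Counts were scaled by TMM (factors 0.773 to 1.32), filtered with filterByExpr to 17013 genes, and fitted with edgeR 4.0.16 (R 4.3.3) as 4 group means by the robust quasi-likelihood test, with Benjamini-Hochberg adjustment over all genes tested and a threshold of 0.05. The fit shares 1 estimate of spread across the 12 libraries. SE is the log2 fold change divided by the square root of F. Log2 CPM used a prior count of 2. There were 5 comparisons, namely the depletion effect within either model, how far it differed between models, and control with control and depletion with depletion across models.

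Members and lists were chosen with earlier results of these data known. All members were named in every comparison. Of the other transporters and regulators past the threshold, at most 6 per list were named by largest change, and of target, sex-biased and marker lists at most 4 by mean CPM. Other genes named (among them Cbr3, Gclc, Cyp1b1, Abcb1a, Abcc1, Nr1h4 and Slco1a6) were chosen after their values were seen. Results of some genes and of a motif are not reported here, though list counts include those genes. Alternatives were other scalings, no filter, DESeq2 1.42.0, limma-voom (limma 3.58.1), a fit of only the groups compared, and leaving out libraries. The fit was tested on simulated data. Promoter windows are RefSeq's (GRCm38.p6, 250 bases before and 50 after the start). The 6 single-cell samples of the series were not used here.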

Additional observations from a re-analysis of the deposited data

Results flagged for a closer look

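The depletion effect differed between models, by the test of the difference itself (N-Ras+AKT minus DEN+CCl4, log2 scale, edgeR with adjusted p under 0.05) for 17 genes named here, all members that passed and others by size within their lists. Among the members these were Slc22a7 (5.39), Slco2b1 (1.90) and Slco1b2 (1.76). Among other uptake carriers they were Slc22a26 (3.29), Slc22a29 (2.93), Slco3a1 (−1.80), Slc10a1 (1.57) and Slc22a27 (1.29). Among other exporters they were Abcc12 (3.07), Slc47a1 (2.17), Abcb11 (1.88), Abcc6 (1.81) and Abcb4 (1.03). Among regulators they were Ppara (1.20), Stat5b (0.86), Rxra (0.80) and Nr1h4 (0.69). When each of the 12 libraries was left out in turn, Slco2b1, Slco3a1, Slc22a29, Slc22a27, Abcb11, Slc47a1, Abcc6 and Abcc12 passed every time. The lost calls of Slco1b2 and Slc22a7 are given with their libraries above. N-Ras+AKT control 15 and depletion 17 and DEN+CCl4 depletion 9 were each needed for the calls of Slc22a26, Slc10a1, Abcb4, Ppara, Stat5b, Rxra and Nr1h4, which held in 5, 4, 4, 2, 6, 3 and 7 of the 12 fits. Their differences stayed above 0 in all 12, at 2.37 to 3.66, 1.21 to 1.87, 0.88 to 1.24, 0.999 to 1.42, 0.68 to 0.97, 0.62 to 0.91 and 0.58 to 0.78. With 3 libraries in each group, single values far from the rest of their group were not tested for.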

How the results depend on the processing

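For the 9 transporters, 45 results were recomputed under 630 alternatives in all. Of these, 553 kept their direction and their side of the threshold, 46 no longer passed, 13 newly passed and 18 changed sign. Other scalings moved the median of all genes by at most 0.08 on the log2 scale. Counts of genes past the threshold moved more. In DEN+CCl4 depletion, 63 genes passed, against 171 with no filter, 1066 with DESeq2, 13 in a fit of only the groups compared and 26 without DEN+CCl4 depletion 6 and N-Ras+AKT depletion 17. In N-Ras+AKT depletion, 4027 passed, against 2626 in a fit of only the groups compared and 2429 without those libraries. For the difference between models, 1970 passed, against 2984 with DESeq2 and 844 without those libraries, where 3 in place of 5 other exporters and 2 in place of 5 regulators passed. With 1 library left out at a time, these counts ranged from 2 (without DEN+CCl4 control 8) to 465 (without DEN+CCl4 depletion 10), from 1768 (without N-Ras+AKT depletion 17) to 4126 (without N-Ras+AKT control 10), and from 895 (without DEN+CCl4 control 7) to 2326 (without N-Ras+AKT control 10). Fewer libraries entered those fits, and the cause of the other shifts was not tested.

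Among single genes, Slco1a1 between depletion groups (0.06) was −0.40 with limma-voom and −0.45 without the pair of libraries, and the difference for Abcc4 was 0.17 without that pair. With 1 library left out, values that changed sign ranged from −0.26 to 0.055 for Abcc2 in DEN+CCl4, from −0.14 to 0.40 for Abcc4 in N-Ras+AKT, from −0.012 to 1.02 for Slco1a4 and −0.46 to 0.083 for Abcc4 in the difference, from −0.998 to 0.62 for Slco1a1 between depletion groups, and, between controls, from −0.26 to 0.77 for Slco1a4, −0.57 to 0.19 for Slco1b2 and −0.037 to 0.52 for Slco2b1. The DEN+CCl4 change of uptake minus export (0.08) ranged from −0.16 to 0.43, and without Slco1a1 and Slco1a4 it was −0.95. The same measure between controls (0.40) was −0.23 without those genes. In residuals from the group means, r fell to 0.880 for Slco2b1 with Tmie and 0.848 for Abcc2 with Atl3. No paired analysis was made, because the labels do not name pairs of libraries between groups.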

Other observations

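Sex-biased liver genes are of use beside Slco1a1, which is male-predominant in mouse liver. In N-Ras+AKT tumours 6 of 11 tested male-biased genes rose and none fell with depletion (median log2 fold change 1.83), and 6 of 16 female-biased genes rose and 1 fell (0.54). Of all genes tested, 12.8% rose and 23.7% passed in either direction. The female-biased genes went both ways, with log2 fold changes from −2.07 to 4.55. Those that rose included Cyp2b9 (3.42, adjusted p = 0.00451) and Cyp2a4 (1.72, adjusted p = 0.0252), the latter lost without control 3, control 15 or depletion 17 (adjusted p up to 0.0864). The abundant male-biased genes Mup20 (0.46), Mup3 (0.00), Cyp2d9 (0.50) and Selenbp2 (1.19) did not pass. In DEN+CCl4 tumours 1 female-biased gene fell and no male-biased gene passed, with Mup20 at −3.89 (adjusted p = 0.0696) while Slco1a1 was at 2.28 (adjusted p = 0.181). Without DEN+CCl4 depletion 6 and N-Ras+AKT depletion 17, 2 of the 11 male-biased genes rose in N-Ras+AKT.

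After depletion, 9 of 11 tested NRF2 targets were higher in N-Ras+AKT than in DEN+CCl4 tumours and none was lower, beside 17.9% of all genes higher. Cbr3, a carbonyl reductase, stood at 47.0 ± 7.50 CPM against 1.16 ± 0.161 CPM (SD, n = 3). Gclc, the catalytic subunit of glutamate-cysteine ligase, stood at 506 ± 69.4 against 158 ± 21.7 CPM. Both calls held without each of the 6 libraries.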
